A study of Mus musculus with 6 samples.

Results

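The HOX genes encode homeodomain transcription factors that lie in 4 clusters, HoxA to HoxD. The members here were every protein-coding row of the deposited expression table whose symbol named a HoxA, HoxB, HoxC or HoxD gene by cluster letter and number, which gave 31 of the 22706 genes of the table. The GENCODE M21 annotation holds 39 such genes, and the remaining 8 (Hoxb1, Hoxb8, Hoxb9, Hoxb13, Hoxd4, Hoxd11, Hoxd12 and Hoxd13) had no row and were not analysed here. Of the members, 11 belonged to HoxA, 6 to HoxB, 9 to HoxC and 5 to HoxD.

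Within a cluster the genes stand in the order of their numbers, and in the embryo genes near the 3′ end (low numbers) are switched on earlier and further towards the head than genes near the 5′ end (high numbers). Each HOX protein binds DNA poorly by itself and usually acts with TALE homeodomain partners of the PBX and MEIS families. Cells of the adult trunk and limbs, muscle cells included, keep a combination of active HOX genes that reflects where in the body they arose, and Polycomb and Trithorax complexes hold these loci silent or active.

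The 6 libraries were RNA-seq of muscle stem cells (MuSCs, the PAX7-positive cells that repair muscle fibres), with 2 libraries from each of 3 genotypes. The control mice were labelled wild type. The mdx mice carry a nonsense mutation in Dmd, the gene of dystrophin, and model Duchenne muscular dystrophy. The Sirt6mKO/mdx mice carry that mutation and also lack Sirt6, a NAD-dependent deacetylase of histones, through Pax7-ICNCre on floxed Sirt6 alleles. This Cre is constitutive and is driven by the Pax7 promoter, so it acts in the whole Pax7 lineage from development onwards and not only in adult MuSCs. The labels call every library C57BL/6 and give no age and no sex. The methods name C57BL/10ScSn as the source of the mdx allele and the study's reporting form describes a C57BL/6 background with littermate controls. Whether the control mice carried Cre or the floxed alleles was not stated for these libraries. Cells came from limb and trunk muscle together and were sorted as CD45-, CD31- and Sca1-negative and Integrin-α7- and CD34-positive, or by a fluorescent reporter, so a HOX level here averages cells from several body positions. The study's reporting form describes the sorted cells as mostly but not fully pure, so a HOX level can include other cells. That part was not tested.

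The deposited values were reads per gene divided by a size factor of the library and rounded to whole numbers, and are called normalized read counts below. From the spacing of these whole numbers the libraries held between 4397632 and 9745218 reads assigned to genes. The 31 HOX genes together had about 499 to 1341 of those reads per library, so a value of a few normalized read counts rested on a few reads. Labels were checked as follows. All 9 MuSC markers passed the minimum level, and Pax7 lay between 2167 and 3236. Sdc4 was the 1 MuSC marker called, and it was called in all 3 comparisons, with 7692 and 6224 normalized read counts in control, 1100 and 1049 in mdx, then 2753 and 2822 in Sirt6mKO/mdx. Summed markers of other cells also varied with the groups. Leukocyte markers (4 of the 6 listed were in the table) summed to 125 to 152 in control, 50 to 59 in mdx and 114 to 171 in Sirt6mKO/mdx, and 5 endothelial markers to 752 to 905, 401 to 407 and 608 to 622. Tek made up most of the endothelial sum, with 669 and 631, 379 and 348, and 503 and 469 in the same order of groups. Ptprc, a leukocyte marker, did not follow its sum, with 0 and 0, 5 and 3, and 3 and 19. The sum of 6 myofibre markers was 5700 to 7995, 1094 to 3215 and 3960 to 7665 in that order. The sum of 6 fibro-adipogenic markers was 18184 to 25059 in control, 29787 to 35506 in mdx, then 19251 to 26768 in Sirt6mKO/mdx. Most of this sum was Col3a1. Pdgfra, which marks fibro-adipogenic cells, was 15 and 59 in control, 195 and 18 in mdx, then 142 and 19 in Sirt6mKO/mdx, and Ly6a, the Sca1 gene, was 3 and 9, 79 and 21, and 65 and 15, so mdx replicate 1 and Sirt6mKO/mdx replicate 1 stood apart in these genes. Smooth muscle and pericyte markers summed to 1470 to 2619 in control, 3515 to 3528 in mdx and 1388 to 2046 in Sirt6mKO/mdx, and Schwann markers to 46 to 53, 57 to 73 and 23 to 45. Erythroid markers summed to 19 to 56, 6 to 14 and 31 to 84 in the same order. The sum of 11 immediate early and dissociation-response genes was 130661 to 140594 in control, 21145 to 23327 in mdx, then 94138 to 107778 in Sirt6mKO/mdx. The part of any of these lists in the HOX values was not tested. Xist, expressed from the inactive X chromosome of females, was 16772 and 12950 in the control libraries and 7 to 34 in the others, whereas the Y-linked Ddx3y was 3 and 8 in the control libraries and 1024 to 1767 in the others. The study's reporting form describes its experiments on control, mdx and Sirt6mKO/mdx animals as done on males, which the control libraries do not match. The sex of the animals and the genotype therefore cannot be told apart in either comparison with control. Sirt6 was 41 and 32 in control, 33 and 40 in mdx, then 37 and 30 in Sirt6mKO/mdx. The floxed allele loses only a few exons, so a value over the whole gene does not check the deletion.

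Promoter sequences show what the cluster DNA looks like at expressed members and at a member just under the minimum level. RefSeq promoters of 300 bases (250 before and 50 after a gene start, GRCm38.p6) were at hand for 16 of the 31 members, 17 promoters in all because Hoxa10 has 2. The 3 given here are those with the fewest and the most CG dinucleotides (Hoxa9 and Hoxa13) and 1 of the member with the highest value, Hoxa10, with every CG in capitals, on the minus strand, 5′ to 3′. The RefSeq start of Hoxa9 lies inside the gene span of the deposited table, and the Hoxa10 start shown is the one further inside its gene.
Hoxa9, chr6:52227321-52227620: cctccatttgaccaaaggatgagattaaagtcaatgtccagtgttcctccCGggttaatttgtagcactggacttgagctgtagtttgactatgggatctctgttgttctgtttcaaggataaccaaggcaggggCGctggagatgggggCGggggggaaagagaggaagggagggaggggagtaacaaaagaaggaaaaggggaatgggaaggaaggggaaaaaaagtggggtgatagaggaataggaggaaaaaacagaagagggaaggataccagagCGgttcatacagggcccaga
Hoxa10, chr6:52234890-52235189: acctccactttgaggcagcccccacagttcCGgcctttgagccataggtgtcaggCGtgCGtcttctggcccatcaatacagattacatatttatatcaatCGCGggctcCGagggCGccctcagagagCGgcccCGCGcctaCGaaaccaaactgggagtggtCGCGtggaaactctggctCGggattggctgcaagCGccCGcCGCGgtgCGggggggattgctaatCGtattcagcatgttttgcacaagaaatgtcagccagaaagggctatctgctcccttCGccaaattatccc
Hoxa13, chr6:52260831-52261130: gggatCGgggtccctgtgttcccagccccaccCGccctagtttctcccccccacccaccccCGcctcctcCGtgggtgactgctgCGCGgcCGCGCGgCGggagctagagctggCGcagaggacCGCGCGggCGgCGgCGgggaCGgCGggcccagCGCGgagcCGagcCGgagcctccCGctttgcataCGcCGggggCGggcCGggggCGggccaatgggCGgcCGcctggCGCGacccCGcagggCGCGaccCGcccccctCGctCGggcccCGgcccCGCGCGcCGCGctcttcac

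The Hoxa9 promoter held 4 CG, this Hoxa10 promoter 21 and the Hoxa13 promoter 45. Over the 17 HOX promoters the median was 20 CG, against 7 over all 32851 RefSeq promoters of that length, whose quartiles were 3 and 20. Many CG were not limited to expressed members. Hoxa9, with 4, was among the members of highest value, whereas Hoxa13, Hoxd1 and Hoxd10, with 45, 29 and 22, were the 3 members with a promoter here that stayed under the minimum level. The letters TATAAA, read on both strands, occurred in 1 of the 17 HOX promoters (5.88%) and in 13.6% of all promoters. TGATTNAT, the composite site of PBX with a HOX protein, occurred in 1 (5.88%, Hoxa2) and in 3.22% of all promoters. TGACAG, bound by MEIS proteins, occurred in 2 (11.8%, Hoxa2 and Hoxa3) and in 19.2% of all promoters.

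Most HOX genes with a row were expressed in these libraries, and most of these lay in HoxA and HoxC. With a mean over the 6 libraries of at least 5 normalized read counts taken as expressed, 24 of the 31 members were expressed: 10 of 11 in HoxA (chromosome 6), 3 of 6 in HoxB (chromosome 11, 96286623 to 96354016, GRCm38), 8 of 9 in HoxC (chromosome 15, 102921103 to 103036843) and 3 of 5 in HoxD (chromosome 2, 74691090 to 74765141). The same limit was passed by 15915 of the 22706 genes of the table. Of the 24 HOX genes, Hoxb2 and Hoxc12 passed only through their Sirt6mKO/mdx libraries, with means of 4.25 and 3.5 in the other groups. Hoxc12 lay just inside this limit, with a mean of 5, and Hoxa13 just outside it, with 4.67. By number, 6 of 7 anterior members (1 to 3), 10 of 13 central members (4 to 8) and 8 of 11 posterior members (9 to 13) were expressed. Altogether 23 members were above 0 in all 6 libraries, and single libraries had 24 to 30 members above 0.

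To compare genes, each mean was divided by the exonic length of the gene in GENCODE M21. Over all 6 libraries the highest mean levels were 43.9 per kb for Hoxa6 and 42.0 for Hoxa10, followed by Hoxc10 with 33.0 and Hoxc6 with 25.2, and these 4 were the only members above the median of expressed protein-coding genes with a length, 24.7 per kb over 13526 genes. Each neighbouring pair in this order overlapped over the libraries, whereas Hoxa10 lay above Hoxc6 in every library. The order of the first pair depended on the group: Hoxa6 was at 68.1, 36.0 and 27.5 per kb in control, mdx and Sirt6mKO/mdx, and Hoxa10 at 37.5, 51.1 and 37.5. Hoxc6 was above that median in control only, at 28.7, 23.0 and 23.9 per kb. By group, Hoxa9 was also above it in Sirt6mKO/mdx, at 28.1 per kb, and Hoxa7 in mdx, at 25.4. The gene span of Hoxa6 in the table reaches 857 bases beyond the M21 gene, and with those bases counted its level was 22.1 per kb. The median of the 24 expressed members was 12.2 per kb, and 10 of them lay below the lower quartile of protein-coding genes, 8.77. For scale, Pax7 was at 456.3 per kb and Myod1 at 192.0. HOX transcripts were thus of low to middling level, and the 7 members not counted as expressed (Hoxa13, Hoxb5, Hoxb6, Hoxb7, Hoxc13, Hoxd1 and Hoxd10) were between 0.184 and 1.89 per kb.

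**Figure D1:**
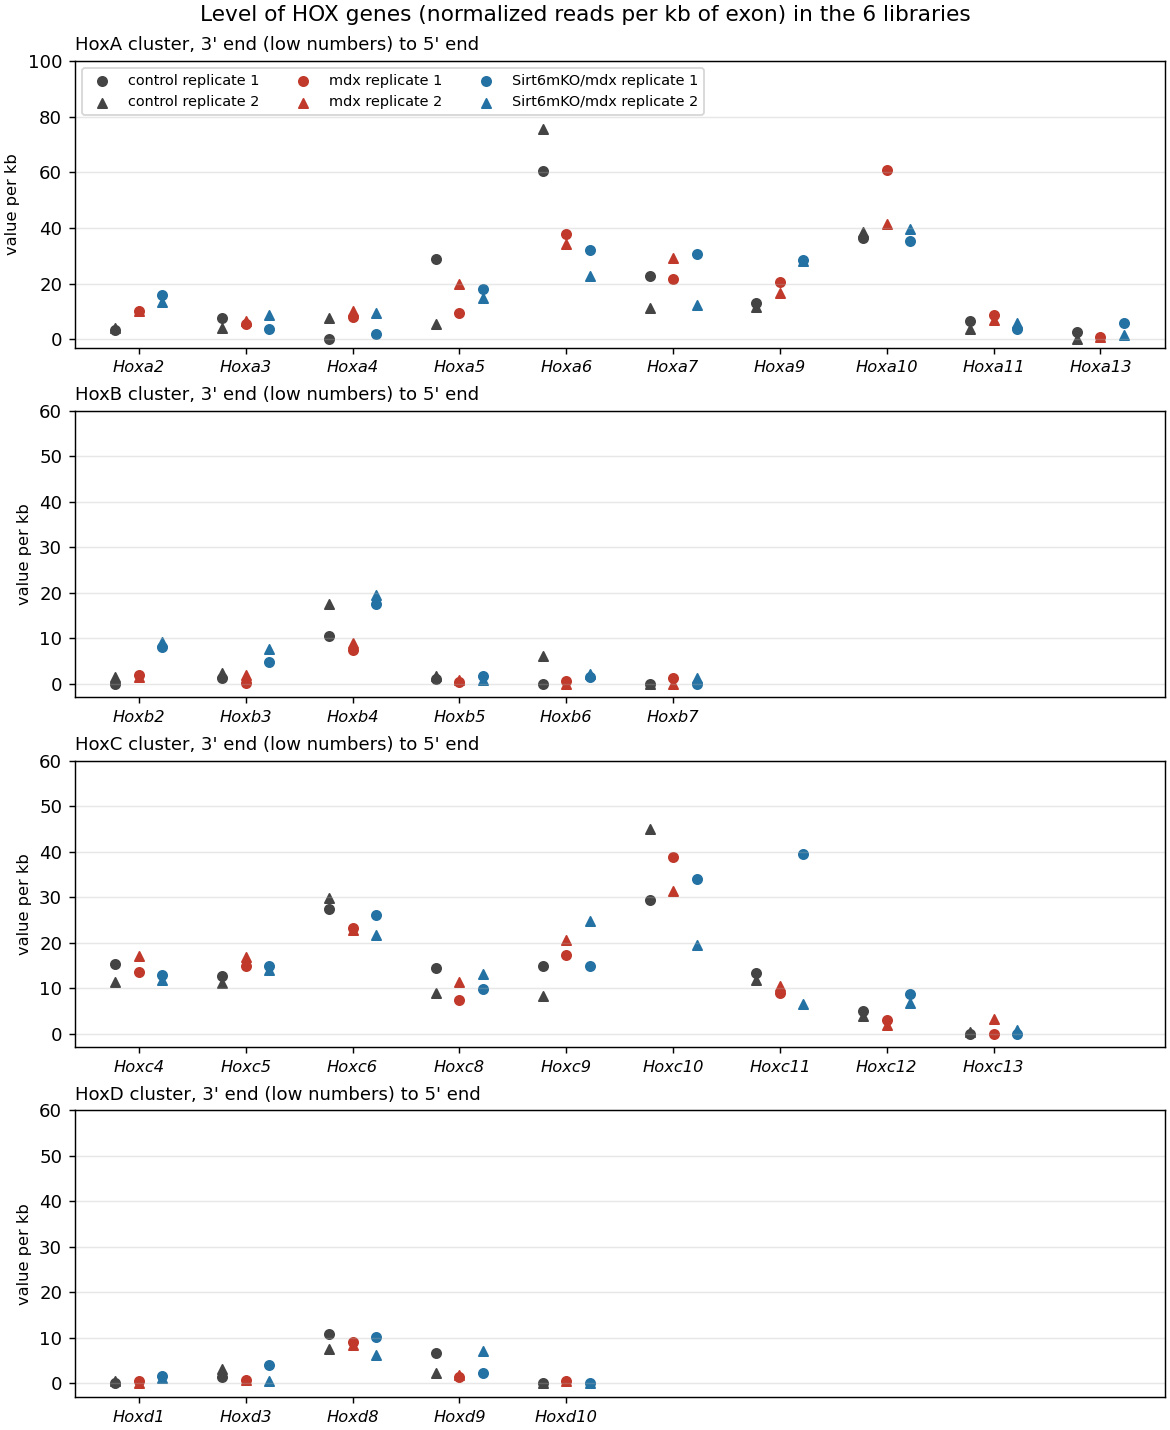
Level of the HOX genes in each library, as normalized read count per kb of exon (y axis, linear, longer in the HoxA panel than in the others), in 4 panels by cluster with genes in the order of their numbers (x axis). Colour gives the genotype, circles replicate 1 and triangles replicate 2. HoxA and HoxC carry levels across their length, HoxB mainly at Hoxb4 and below, and HoxD mainly at Hoxd8.

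HoxA was the cluster with the largest share of the summed level on average. Of the sum of the members per kb, HoxA held 50.6% on average (45.5% to 55.2% over the 6 libraries), HoxC 38.4% (35.3% to 41.3%), HoxB 6.71% (3.50% to 12.0%) and HoxD 4.26% (3.35% to 5.44%). The clusters have 11, 6, 9 and 5 rows here, in the order HoxA to HoxD, and a sum counts only genes with a row. With M21 lengths the ranges of HoxA and HoxC did not overlap each other or those of HoxB and HoxD. The ranges of HoxB and HoxD did overlap. Ranges over the libraries were compared with M21 lengths only. Without division by length HoxC was 35.2%, and with the bases of gene spans outside the M21 genes counted as length, HoxA was 47.1% and HoxC 42.4%. The summed level of all 31 members lay between 335.7 and 390.1 per kb. As a share of the sum of all values in a library, with no division by length, the members made up 0.0126% and 0.0138% in control, 0.0138% and 0.0157% in mdx, then 0.0106% and 0.0105% in Sirt6mKO/mdx.

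In HoxA the highest values, not divided by length, were those of Hoxa10 and Hoxa9. Hoxa10, which patterns the upper limb segment, had 119 and 126 normalized read counts in control, 199 and 135 in mdx, then 115 and 130 in Sirt6mKO/mdx. Hoxa9 had 73 and 65, then 115 and 92, then 158 and 156 in the same order of groups. Hoxa7 had 65 and 32, 62 and 84, and 88 and 35. With the deposited size factors, the values of Hoxa9 were thus ordered control, mdx, Sirt6mKO/mdx with no overlap between groups. The order of mdx and Sirt6mKO/mdx depends on this scaling, since total counts put the median log2 fold change of all genes at -0.59. Hoxa7 overlapped throughout, and Hoxa10 was highest in the mdx libraries, 1 of which stood apart.

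Among the central HoxA genes, Hoxa6 had 53 and 66 in control, 33 and 30 in mdx, then 28 and 20 in Sirt6mKO/mdx. Hoxa5, which patterns the neck and shoulder region, had 54 and 10, 18 and 37, and 34 and 28. Hoxa4 had 0 and 12, 13 and 16, and 3 and 15. Hoxa6 was therefore higher in both control libraries than in any other, and for Hoxa5 and Hoxa4 the 2 control libraries differed as much as any groups did.

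Per kb, the anterior Hoxa2 and Hoxa3 were at 9.48 and 6.01. Hoxa3 had 45 and 24 in control, 34 and 40 in mdx, then 22 and 52 in Sirt6mKO/mdx. Hoxa2, which patterns the branchial arches and hindbrain, had 6 and 7, 18 and 18, and 28 and 24. With the deposited size factors Hoxa2 separated all groups, with control lowest, and Hoxa3 did not. At the posterior end Hoxa11, which patterns the middle limb segment, had 15 and 8, 20 and 16, and 8 and 13, and Hoxa13, which patterns hands and feet, had 6 and 0, 2 and 2, and 14 and 4 and so was not counted as expressed. Hoxa11 shares 35.0% of its exonic bases with other genes and Hoxa3 27.1%, and reads that fell in several genes were left out of the counting.

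HoxB was expressed only in its anterior part and Hoxb4. Hoxb4, which acts in haematopoietic stem cells and in neck patterning, had 27 and 45 normalized read counts in control, 19 and 23 in mdx, then 45 and 50 in Sirt6mKO/mdx. Hoxb2 had 0 and 5, 7 and 5, and 28 and 32. Hoxb3 had 5 and 10, 1 and 8, and 20 and 32. In all 3 genes the Sirt6mKO/mdx libraries were above the mdx libraries, and for Hoxb2 and Hoxb3 also above the control libraries. The other 3 members of HoxB, Hoxb5, Hoxb6 and Hoxb7, lay between 0 and 12 in every library. Hoxb3 shares 52.9% of its exonic bases with other genes and Hoxb2 27.3%. Summed per kb, HoxB was 12.8 and 29.2 in control, 11.8 and 13 in mdx, then 33.6 and 40.2 in Sirt6mKO/mdx. With the deposited size factors the libraries of the last group thus lay above the rest.

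HoxC was expressed from Hoxc4 to Hoxc12, and it has no members numbered 1 to 3. Hoxc10, which marks hindlimb and lumbar positions, had 56 and 86 in control, 74 and 60 in mdx, then 65 and 37 in Sirt6mKO/mdx. Hoxc6, which marks forelimb and thoracic positions, had 66 and 72, 56 and 55, and 63 and 52. Hoxc5 had 39 and 34, 46 and 52, and 46 and 43. Genes of both forelimb-level and hindlimb-level positions were thus present together, in cells drawn from limb and trunk. Hoxc4 had 39 and 29, 35 and 44, and 33 and 30. Hoxc8, a thoracic gene, had 41 and 25, 21 and 32, and 28 and 37. Hoxc9 had 36 and 20, 42 and 50, and 36 and 60. In no comparison did Hoxc4, Hoxc8 or Hoxc9 reach an unadjusted limma p under 0.05. Hoxc11, a lumbosacral gene, had 27 and 24, 18 and 21, and 80 and 13, so the value of 80 was 1 Sirt6mKO/mdx library and not its group. Hoxc12 had 5 and 4, 3 and 2, and 9 and 7, and Hoxc13, which is required in hair and nails, lay between 0 and 8.

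HoxD had the lowest summed level per kb on average, with a range that overlapped that of HoxB. Hoxd8 had 30 and 21 normalized read counts in control, 25 and 23 in mdx, then 28 and 17 in Sirt6mKO/mdx. Hoxd9 had 14 and 5, 3 and 4, and 5 and 15. Hoxd3 had 6 and 13, 3 and 3, and 17 and 2. Only Hoxd8, in the middle of the cluster, was steady across the libraries. Hoxd1 lay between 0 and 3 and Hoxd10, a hindlimb gene, between 0 and 1. Hoxd3 shares 62.8% of its exonic bases with other genes.

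The order of the 31 genes by level was alike in all libraries. Spearman's rho between the profiles was 0.798 to 0.916 for the 3 pairs of libraries of the same group and 0.770 to 0.897 for the 12 pairs of different groups, so libraries of different genotypes resembled each other about as much as replicates did. These are correlations across genes, which share their clusters and are not independent replicates, and no test was made of them.

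**Figure D2:**
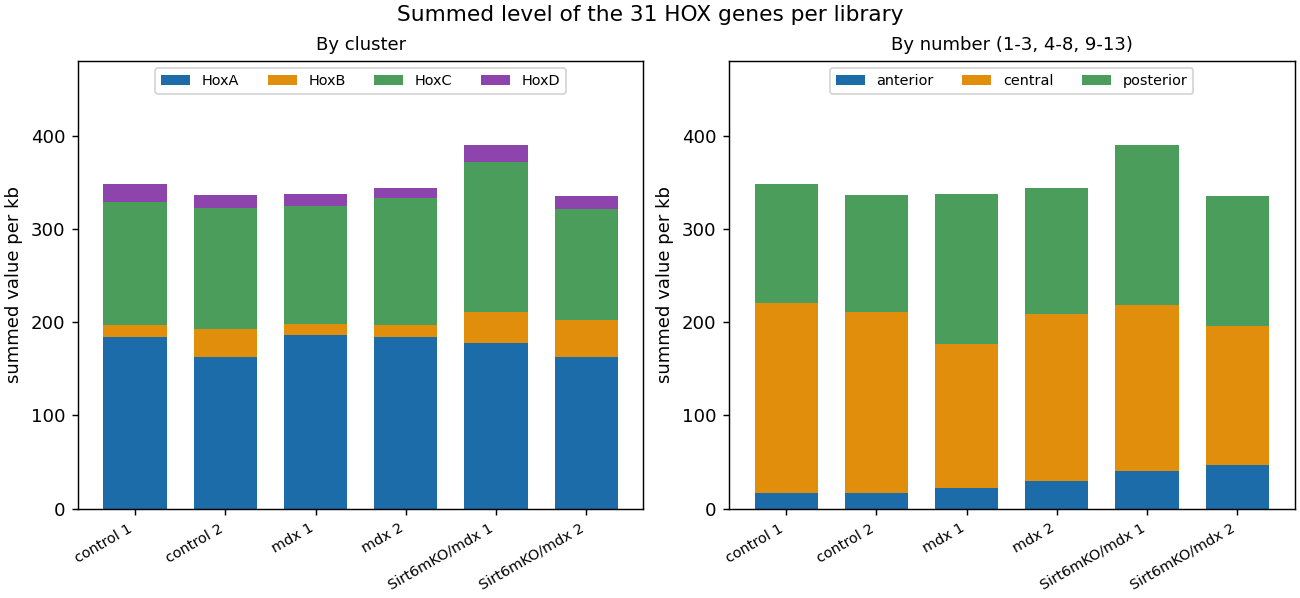
Summed normalized read count per kb of the 31 HOX genes in each of the 6 libraries (bars, from 0), divided by cluster on the left and by number on the right (anterior 1 to 3, central 4 to 8, posterior 9 to 13). Totals were 335.7 to 390.1, and the anterior part was larger in both Sirt6mKO/mdx libraries than in the other 4.

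The anterior share of the summed level was ordered by genotype. Anterior members made up 4.64% and 5.10% of the summed level in control, 6.38% and 8.50% in mdx, then 10.4% and 13.8% in Sirt6mKO/mdx, with no overlap between the groups. Central members made up 58.7% and 57.6%, 45.9% and 52.1%, and 45.5% and 44.5%. Posterior members made up 36.6% and 37.3%, 47.7% and 39.4%, and 44.1% and 41.7%. The higher anterior share came with Hoxa2, Hoxb2 and Hoxb3, and the lower central share with Hoxa6, whose level per kb carries the uncertainty of its length. An exact test of such a share between 2 groups of 2 libraries cannot reach p below 0.333, and these shares were not tested.

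Mdx against control compares MuSCs of dystrophic mice with those of control mice, and sex and genotype cannot be told apart here. No HOX gene passed the test in this comparison. A limma fit with a variance trend on log2(normalized read count + 1) over all 15915 genes of mean at least 5 was used in every comparison, and a gene was called at a Benjamini-Hochberg adjusted p of at most 0.05 and a log2 fold change of at least 1 in either direction. Of the 24 HOX genes tested, 0 were called, against 14.2% of all genes tested (6.89% higher and 7.34% lower in mdx), and 0 had an unadjusted p under 0.05, against 31% of all genes. The median log2 fold change of the 24 was 0.14, against 0.00 over all genes, with 13 above and 11 below 0. Both groups were free of overlap in 14 of the 24 (58.3%), beside 57% of all genes tested. The members with the smallest p were Hoxa2, with a log2 fold change of 1.34 ± 0.69 (SE, limma adjusted p = 0.202), Hoxa4 with 2.10 ± 1.18 (limma adjusted p = 0.247) and Hoxa6 with -0.89 ± 0.50 (limma adjusted p = 0.250). The control value of 0 in 1 library set the size for Hoxa4. Without control replicate 2, the library with 12, Hoxa4 was called with a log2 fold change of 3.95, in a fit where the 1 control library left is assumed to vary like the other groups, and without control replicate 1 its log2 fold change was 0.25.

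Sirt6mKO/mdx against mdx asks what loss of Sirt6 in the Pax7 lineage changes within the dystrophic background, and both of these groups had low Xist and high Ddx3y. Again 0 of the 24 HOX genes were called, against 8.17% of all genes (5.62% higher and 2.54% lower). An unadjusted p under 0.05 was reached by 3 of the 24 (12.5%), against 25.2% of all genes. The 3 were Hoxb2, Hoxb3 and Hoxb4, with higher values in Sirt6mKO/mdx, and Hoxb2 passed the minimum level only through that group. The log2 fold change was 2.63 ± 0.93 for Hoxb3 (SE, limma adjusted p = 0.0924), 1.14 ± 0.53 for Hoxb4 (limma adjusted p = 0.191) and 2.16 ± 1.0 for Hoxb2 (limma adjusted p = 0.194). Leaving out each library in turn gave log2 fold changes of 1.55 to 3.72 for Hoxb3. None of the 3 is shown to have changed. The median over the 24 was 0.03, against 0.02 over all genes, and 11 (45.8%) showed no overlap, beside 56% of all genes tested. Scaled to the total counts instead, 1 HOX gene, Hoxa10, was called lower. Under that scaling the median log2 fold change of all genes was -0.59 in this comparison and in the next, so its changes are relative to that median.

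In the comparison of Sirt6mKO/mdx with control, Hoxb2 and Hoxa9 were called higher, and Hoxb2 entered the test only through the group where it was high. Hoxb2, from a mean of 2.5 to 30 normalized read counts, had a log2 fold change of 3.66 ± 1.0 (SE, limma adjusted p = 0.0333), and Hoxa9, from 69 to 157, had 1.18 ± 0.33 (limma adjusted p = 0.0371). Both genes were higher in 2 of 2 Sirt6mKO/mdx libraries than in either control library. Hoxb2 passed the minimum level only through Sirt6mKO/mdx, with a mean of 4.25 in the other groups, so it could enter the test only with a difference. Next by p was Hoxa2 with 1.85 ± 0.69 (limma adjusted p = 0.114). These 2 calls, both higher, are 8.33% of the 24, beside 7.87% of all genes called (5.19% higher and 2.68% lower). Since Hoxb2 could enter only with a difference, no conclusion is drawn from these shares. An unadjusted p under 0.05 was reached by 4 (16.7%), against 24.1% of all genes, and 8 (33.3%) showed no overlap between the groups, beside 51.6%. The median log2 fold change of the 24 was 0.28, against 0.01 over all genes, with 16 above 0. The values of Hoxb2 were of few reads. Its log2 fold change was 5.39 with a pseudocount of 0.1, with no call, and 2.37 without control replicate 1, the library at 0. Leaving out any 1 library kept at most 1 of the 2 calls, the call of Hoxb2 without control replicate 2, and Hoxa9 was then never called, with log2 fold changes of 1.09 to 1.26. With total-count scaling, where the median of all genes was -0.59, Hoxa9 was at 0.58 and lost its call (limma adjusted p = 0.266), and the 2 calls were Hoxb2, higher, and Hoxa6, lower. Hoxa9 also lost its call with one prior variance (limma adjusted p = 0.130) and with no minimum mean (limma adjusted p = 0.0903). Hoxb2 lost its call with both (limma adjusted p = 0.120 and 0.125), with voom weights (limma adjusted p = 0.0665) and with a mean of at least 10 (limma adjusted p = 0.0518).

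**Figure D3:**
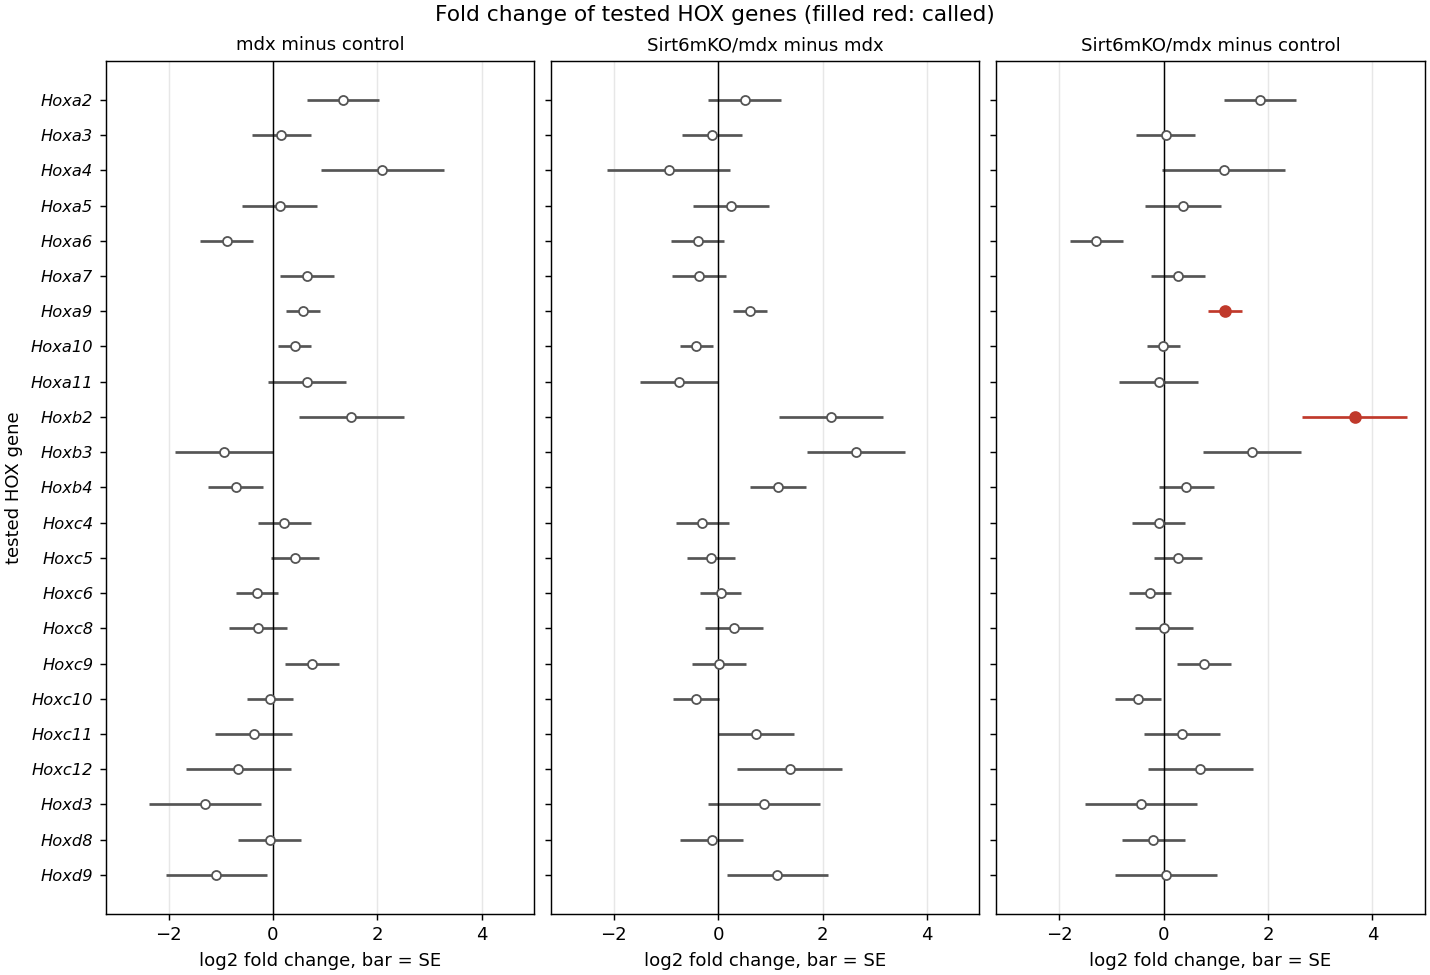
Log2 fold change with its standard error (x axis) of tested HOX genes (y axis, in cluster order) in the 3 comparisons, from the limma fit on log2(value + 1). Filled red points are called and open points are not. Only Hoxa9 and Hoxb2 in the comparison of Sirt6mKO/mdx with control are filled.

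**Figure D4:**
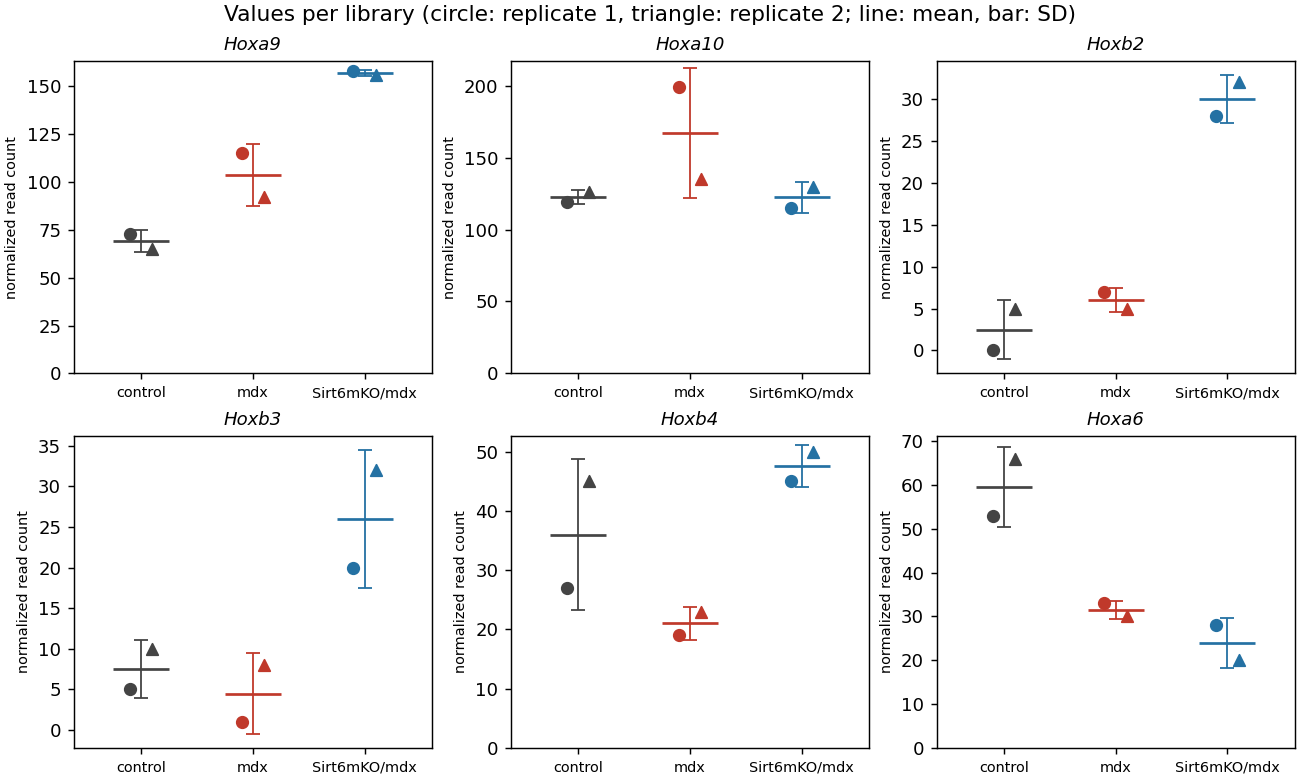
Normalized read counts of 6 HOX genes in each library (y axis, linear), with circles for replicate 1, triangles for replicate 2, a line at the mean and a bar for the SD of the 2 libraries of each genotype. Hoxa9 values lie lowest in control and highest in Sirt6mKO/mdx, Hoxb2 and Hoxb3 values are highest in Sirt6mKO/mdx, and Hoxa6 values are highest in control.

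The comparisons share libraries, so their fold changes are not independent. Set side by side, Hoxa9 had log2 fold changes of 0.57, 0.61 and 1.18 in mdx against control, Sirt6mKO/mdx against mdx and Sirt6mKO/mdx against control, Hoxb2 had 1.5, 2.16 and 3.66, and Hoxa2 had 1.34, 0.50 and 1.85. Hoxa6 had -0.89, -0.40 and -1.29, with an unadjusted limma p of 0.0221 in the last, and Hoxb4 had -0.71, 1.14 and 0.43. The steps between neighbouring genotypes were not called for any of these.

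Other rows between the outermost HOX genes of each cluster gave 17 more genes, 1 of them (5730596B20Rik) protein-coding and the rest non-coding, of which 10 had a mean of at least 5, and 0 were called in any comparison, beside 14.2%, 8.17% and 7.87% of all genes. An unadjusted limma p under 0.05 was reached 3 times over the comparisons, by Mir615 in both comparisons with control and by 5730596B20Rik in Sirt6mKO/mdx against control. Hotair, a long non-coding RNA of HoxC that binds Polycomb proteins, had 50 and 29 normalized read counts in control, 30 and 58 in mdx, then 73 and 19 in Sirt6mKO/mdx. Hoxb3os had 15 and 15, 29 and 35, and 20 and 52. 5730596B20Rik of HoxA had 12 and 7, 24 and 16, and 31 and 37. The first of these scattered within groups, and the last was higher in Sirt6mKO/mdx than in control with a log2 fold change of 1.77 ± 0.66 that did not pass (limma adjusted p = 0.109). The antisense transcripts 2700086A05Rik (Hoxaas3), 5730446D14Rik (Hoxaas2), Hoxa11os, Gm15051 (Hotairm1) and 1700109F18Rik (Hoxd3os1) lay between 0 and 26. Whether the counting used strand was not stated, so reads of an antisense gene and of its partner may not be told apart.

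The 2 microRNA genes of HoxC in the table, which lie between its HOX genes, are shown for their sequence since miR-196 is known to target HOX transcripts. Their mature forms from RefSeq (GRCm38.p6, plus strand), 5′ to 3′ with the seed (bases 2 to 8) in capitals, have different seeds.
mmu-miR-196a-5p, chr15:102973365-102973386: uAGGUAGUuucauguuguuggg
mmu-miR-196a-2-3p, chr15:102973401-102973422: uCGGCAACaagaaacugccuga
mmu-miR-615-5p, chr15:103014926-103014947: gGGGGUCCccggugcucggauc
mmu-miR-615-3p, chr15:103014969-103014990: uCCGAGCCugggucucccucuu

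The row of Mir196a-2 had 0 and 7 normalized read counts in control, 8 and 9 in mdx, then 14 and 4 in Sirt6mKO/mdx. That of Mir615 had 0 and 1, 5 and 13, and 3 and 24, above control in all 4 other libraries but not called (limma adjusted p = 0.134 in mdx, then 0.156 in Sirt6mKO/mdx against control). A total-RNA library of this kind reads the host or precursor transcript, and the values say nothing of the mature microRNA.

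Partners of HOX proteins were also measured, and of 9 listed HOX cofactors 8 were tested, of which 2, 1 and 1 were called in the 3 comparisons, beside 14.2%, 8.17% and 7.87% of all genes. Meis2 fell in mdx, from 100 and 96 in control to 48 and 26, by 1.44 on the log2 scale (limma adjusted p = 0.0353), and rose in Sirt6mKO/mdx, to 84 and 173, with a log2 fold change of 1.74 against mdx (limma adjusted p = 0.0233). Pknox1, a further TALE partner, fell from 761 and 676 in control to 300 and 362 in mdx, then 370 and 279 in Sirt6mKO/mdx, by 1.12 and by 1.16 (limma adjusted p = 0.00769 and 0.0114). No other cofactor was called in any comparison, and Meis1 lay between 124 and 238. The median log2 fold change of the 8 was 0.19, -0.24 and 0.07 in the 3 comparisons.

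Of 18 listed factors of limb and axial position 14 were in the table and 9 were tested, and 0 were called in any comparison, beside 14.2%, 8.17% and 7.87% of all genes. Their median log2 fold changes were 0.12, 0.00 and 0.19. Tbx4, the T-box factor of the hindlimb, had 82 and 201, 153 and 114, and 88 and 110, whereas Tbx5, its forelimb counterpart, lay between 0 and 1 and Pitx1, a further hindlimb factor, between 0 and 6.

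All 27 listed regulators of chromatin at HOX loci were tested. In mdx against control 3 of 27 fell and 0 rose, beside 14.2% of all genes called. Kdm6b, which removes H3K27 methylation, had a log2 fold change of -2.46 and Dot1l, which methylates H3K79, had -1.52. In Sirt6mKO/mdx against mdx, where 8.17% of all genes were called, 3 rose, with log2 fold changes of 2.26 for Kdm6b and 1.48 for Dot1l among them, and Rbbp5, a subunit of MLL complexes, fell by 1.26. In Sirt6mKO/mdx against control, where 7.87% of all genes were called, Rnf2, an E3 ligase of Polycomb, rose by 1.08 and Cbx7 by 1.49. The medians over the list were 0.08, 0.11 and -0.13. Kdm6b had 1846 and 1019 normalized read counts in control, 184 and 337 in mdx, then 1393 and 1022 in Sirt6mKO/mdx, a pattern it shares in direction with the immediate early genes given above.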

How the data were processed

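Total RNA of FACS-sorted MuSCs was depleted of rRNA and sequenced on Ion Torrent. Per the submitters' processing notes, the authors used STAR 2.4.2a for alignment (the methods give other versions of STAR and DESeq2), after trimming with Reaper, and featureCounts 1.4.5-p1 for reads per gene, with reads of several genes or positions left out, and normalized with DESeq2 1.6.0. The deposited values, a score here, are DESeq2-normalized reads rounded to whole numbers, as the authors made them, so exact counts were not at hand and no count model was run. The table holds 22706 genes and 6 libraries. Size factors, and from them approximate reads (4397632 to 9745218 per library), were recovered from skipped whole numbers and tested on simulated data. Values per kb used GENCODE M21 exons (GRCm38).

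The fit was limma 3.58.1 in R 4.3.3 with a variance trend on log2(value + 1), over all 6 libraries with no block, with genes of mean at least 5. With a pseudocount of 1, fold changes of low genes are understated. Calls needed an adjusted p of at most 0.05 and a log2 fold change of at least 1. Alternatives were other pseudocounts (0.1 and 5), scalings, filters, variance priors, a replicate block and leaving out each library. The 2 libraries of a group are called biological replicates in the study's methods.

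Members and lists were chosen with earlier results of these data known. Members with a mean of at least 5 were given in every library, others by range. Some genes, 1 member among them, are included in the counts, sums and tests but are not reported here by name. Fold changes were given for members past an adjusted p of 0.05 or, if fewer than 3, the 3 of smallest p. Hoxa2, Hoxa6, Hoxa9, Hoxb2 and Hoxb4 were named in further comparisons after their values were seen. The table held no columns of the authors' own comparisons.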

Additional observations from a re-analysis of the deposited data

How the results depend on the processing

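Of 302 recomputed values, 248 stayed on their side of the threshold or close in size, 34 counts or shares moved, 19 called fold changes of Hoxa9 and Hoxb2 lost their call, 1 (Hoxa4) gained one, and no fold change turned its direction. A count that stayed can hold other genes: with total counts the 2 HOX genes called in Sirt6mKO/mdx against control were Hoxb2, higher, and Hoxa6, lower. HOX genes called in Sirt6mKO/mdx against control were 1 with a pseudocount of 0.1, with voom weights and with a mean of at least 10, 0 with one prior variance and with no minimum mean, and 0 to 1 when each library was left out. In Sirt6mKO/mdx against mdx 1 was called with total counts, and in mdx against control 0 to 1 when each library was left out. The voom and pseudocount 0.1 fits lost Hoxb2 and the mean of at least 10 also lost it, and the cause was not tested.

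Genes called over the whole table, 2265 in mdx against control, 1300 in Sirt6mKO/mdx against mdx and 1253 in Sirt6mKO/mdx against control, were 541, 0 and 87 with one prior variance, and 989, 168 and 221 with no minimum mean. With total counts they were 3415 (478 higher) in Sirt6mKO/mdx against mdx and 3150 (454 higher) against control. Leaving out each library, where the 1 library left in a group is assumed to vary like the others, gave 939 to 2356, 203 to 1475 and 213 to 1314. With one prior variance, the 0 genes called in the second comparison by limma stand beside 4004 at an unadjusted p under 0.05 in the fit with a variance trend. The share of HoxC was 35.2% with no division by length, and that of HoxA 47.1% and of HoxC 42.4% with bases outside the reference span, an alternative chosen after seeing the data.

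With a replicate block 2415, 1510 and 1404 genes were called and no HOX call changed. The deviations of replicate 1 from its group mean, over the genes tested on the log2 scale, correlated at -0.13 between control and mdx. They correlated at 0.12 between control and Sirt6mKO/mdx and at 0.01 between mdx and Sirt6mKO/mdx, so the numbers were not taken to pair the samples. With the mdx numbers exchanged, a pairing chosen after seeing the data, 2372 genes were called in mdx against control. Values of a few reads limit Hoxb2, Hoxb3 and all members under 5.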
